A study of Mus musculus with 5 samples.

Results

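The interferon-induced genes Ifit3, Oas1a, Gbp2 and Psmb8 were followed in whole pancreas of female C57BL/6 mice aged 8 weeks. They were taken by symbol from the deposited gene tables, which hold 1457 genes, and all 4 were found in each of the 5 libraries. Acute pancreatitis was induced by intraperitoneal caerulein, a peptide that acts on cholecystokinin receptors, at 50 µg/kg. It was given to wild type mice, with replicates 1 and 2 sequenced (2 libraries), and to miR-21-/- mice, which lack the microRNA miR-21, with replicates 1 and 3 sequenced (2 libraries). Pancreas was collected at 24 h from the first dose. The remaining library came from saline-treated wild type pancreas, so the baseline has no replicate and there is no miR-21-/- baseline. The labels say neither how the miR-21 allele was made nor whether each library is a separate mouse or a pool, so p-values measure only the spread between these libraries.

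Interferons are cytokines that cells release on sensing viral or self nucleic acids, or, for interferon gamma, that lymphocytes release. Type I interferon acts through the receptor pair Ifnar1 and Ifnar2 and the kinases Jak1 and Tyk2, and its target genes carry the interferon-stimulated response element (ISRE). Interferon gamma signals through the kinases Jak1 and Jak2, and its target genes carry the gamma-activated sequence (GAS). Ifit3 encodes a tetratricopeptide protein of the antiviral IFIT complexes, Oas1a an enzyme that makes 2′-5′ oligoadenylates on double-stranded RNA, and Gbp2 a guanylate-binding GTPase that acts on membranes of intracellular pathogens. Psmb8 encodes the beta5i subunit, which replaces the constitutive subunit Psmb5 in the immunoproteasome and shapes the peptides loaded on MHC class I.

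The 250 bases before the RefSeq start of each gene (build GRCm38.p6) are shown because the elements through which interferons act on their target genes commonly lie there. Capitals mark matches to the ISRE core, which is GAAA, any 2 bases and GAAA again, or to the GAS motif TTCNNNGAA, each searched on both strands. The windows lie at chr19:34583279-34583528, plus strand, chr5:120907526-120907775, minus strand, chr3:142620413-142620662, plus strand, and chr17:34197945-34198194, plus strand.
Ifit3: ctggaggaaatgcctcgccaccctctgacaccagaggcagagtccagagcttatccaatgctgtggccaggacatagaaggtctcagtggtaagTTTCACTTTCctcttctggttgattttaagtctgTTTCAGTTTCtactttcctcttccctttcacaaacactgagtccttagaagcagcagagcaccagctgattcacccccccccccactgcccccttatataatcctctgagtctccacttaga
Oas1a: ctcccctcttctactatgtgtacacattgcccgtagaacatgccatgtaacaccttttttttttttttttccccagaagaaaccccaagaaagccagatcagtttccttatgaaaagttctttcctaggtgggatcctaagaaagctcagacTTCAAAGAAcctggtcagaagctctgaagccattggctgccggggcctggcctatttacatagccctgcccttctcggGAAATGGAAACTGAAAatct
Gbp2: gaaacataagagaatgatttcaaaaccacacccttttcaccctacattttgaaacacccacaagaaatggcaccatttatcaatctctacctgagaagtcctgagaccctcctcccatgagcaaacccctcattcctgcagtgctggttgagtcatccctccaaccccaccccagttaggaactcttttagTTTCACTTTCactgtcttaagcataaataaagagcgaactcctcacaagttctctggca
Psmb8: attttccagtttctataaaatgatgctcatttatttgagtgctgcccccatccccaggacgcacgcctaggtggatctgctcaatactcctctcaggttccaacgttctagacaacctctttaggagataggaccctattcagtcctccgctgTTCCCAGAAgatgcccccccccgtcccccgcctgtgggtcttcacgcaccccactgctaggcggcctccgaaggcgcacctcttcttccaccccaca

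Positions are counted back from the start to the first base of a match as printed, and strands are those of the printed sequence. Ifit3 had 2 ISRE matches on the opposite strand, which begin 156 and 122 bases before the start as read here. Oas1a had 2 overlapping ISRE matches on the printed strand, 20 and 14 bases before the start, and a GAS match at 98. Gbp2 had 1 ISRE match on the opposite strand at 59. Psmb8 had no ISRE match in this window and 1 GAS match at 97. The ISRE core was thus present for 3 of the 4 genes, against 936 of 27025 mouse genes with such a window (3.46%) and 42 of the 1086 genes of the deposited table that could be matched to one (3.87%). The GAS motif was present for 2 of the 4, against 8.13% of the 27025 genes and 7.0% of the 1086. A match is a run of letters and does not show that a factor was bound in these samples.

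**Figure D1:**
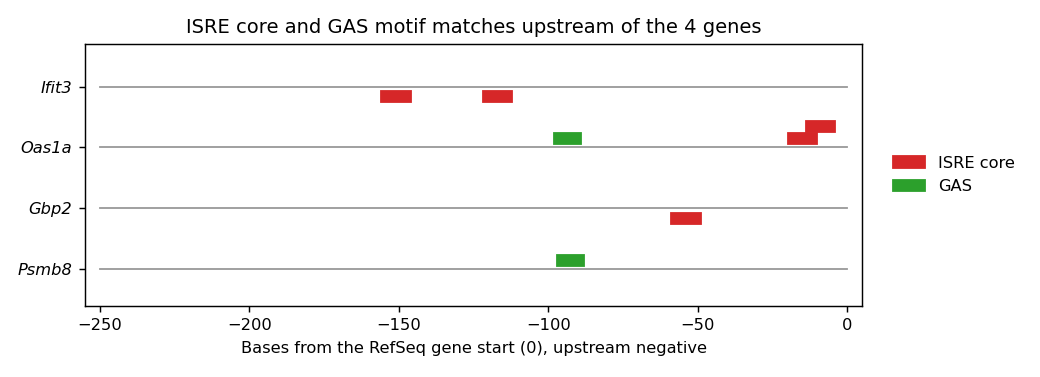
Positions of ISRE core (red) and GAS (green) matches in the 250 bases before the RefSeq start of the 4 genes. The horizontal axis gives bases from the start, boxes above a line read with the gene and boxes below it on the opposite strand; Ifit3, Oas1a and Gbp2 carry ISRE matches, and Oas1a and Psmb8 a GAS match.

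The values are the authors' signal per gene, of unstated unit and normalization, and the read depth is unknown. The signals of all 1457 genes sum to 2818 in the saline library and to between 23255 and 38628 in the caerulein libraries, and 540 genes (37.1%) stand at the lowest value, 0.01, in saline. The rows follow a falling ratio of wild type caerulein to saline and every gene differs at least 2.53-fold from saline in some caerulein library. The genes therefore appear to have been selected for their difference from this saline library, and a test against it describes genes chosen for that difference. Across the 1429 genes tested, which are not independent, wild type replicate 1 resembled knockout replicate 3 (Spearman's rho 0.73) and wild type replicate 2 resembled knockout replicate 1 (0.74), while rho was 0.35 to 0.45 for the other 4 pairs of caerulein libraries. The labels give no batch.

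Ifit3 was listed at 0.01 in saline, at 8.52 and 5.35 in replicates 1 and 2 of the caerulein-treated wild type, and at 16.89 and 13.75 in knockout replicates 1 and 3. Both knockout libraries lay above both wild type libraries, and all 4 lay above saline. The means were 6.94 ± 2.24 (SD, n = 2) in the wild type and 15.3 ± 2.22 (SD, n = 2) in the knockout, a ratio of 2.21. Within its library Ifit3 stood at the 19.8th and 38.3rd percentile of the 1457 genes in the wild type and at the 70.0th and 67.8th in the knockout, so the genotypes were also separate by rank within each library.

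Oas1a was 1.09 in saline, 8.83 and 15.1 in wild type replicates 1 and 2, and 8.13 and 9.43 in knockout replicates 1 and 3. Wild type replicate 2 was the highest and the other 3 caerulein libraries lay close together, so the genotypes overlapped. The means were 12 ± 4.43 (SD, n = 2) in the wild type and 8.78 ± 0.919 (SD, n = 2) in the knockout.

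Gbp2 was 1.07 in saline, 8.91 and 5.98 in the wild type and 13.47 and 5.33 in the knockout. The highest and the lowest caerulein libraries were both knockout, replicates 1 and 3, and the wild type libraries lay between them. The means were 7.45 ± 2.07 (SD, n = 2) in the wild type and 9.4 ± 5.76 (SD, n = 2) in the knockout.

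Psmb8 was listed at 0.01 in saline, at 15.82 and 13.26 in the wild type and at 14.15 and 10.05 in the knockout. It was the most even of the 4 genes across the caerulein libraries, with the highest library 1.57 times the lowest, against 3.16 times for Ifit3, 2.53 times for Gbp2 and 1.86 times for Oas1a. The SD of log2(signal + 1) over those libraries was 0.26 for Psmb8, 0.37 for Oas1a, 0.54 for Gbp2 and 0.67 for Ifit3, with a median of 0.71 over the 1429 genes tested. The order of the caerulein libraries differed for every one of the 4 genes.

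**Figure D2:**
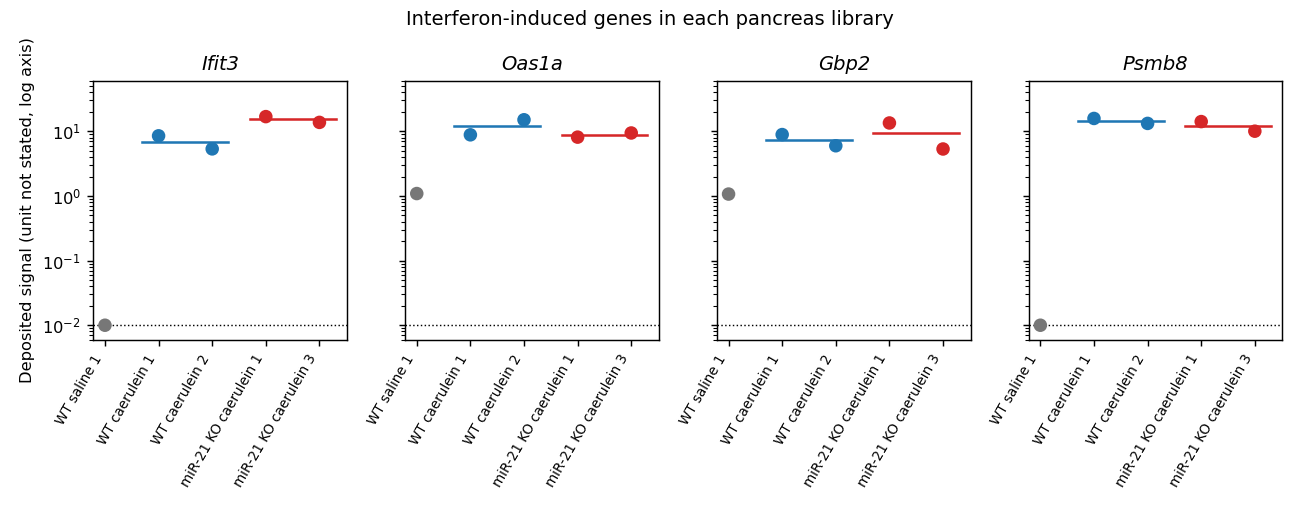
Deposited signal of Ifit3, Oas1a, Gbp2 and Psmb8 (log axis, unit not stated) in the wild type (WT) saline library (grey), the WT caerulein libraries (blue) and the miR-21 knockout (KO) caerulein libraries (red), with lines at the group means and a dotted line at the lowest listed value, 0.01. The genotypes separate for Ifit3, where 16.89 and 13.75 stand above 8.52 and 5.35, and overlap for the other 3 genes.

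Short reads cannot always tell these genes from their copies. In the GENCODE M21 transcripts 58.5% of the 36-base words of Ifit3 also occur in Ifit3b, and 65.7% of those of Oas1a in Oas1g, neither of which is among the 1457 genes. The share was 3.66% for Gbp2, all with Gbp2b, and 12.9% for Psmb8, mainly with the overlapping gene model Gm20496. How the authors divided such reads is not given in the sources used here, so the values of Ifit3 and Oas1a may include reads of their copies.

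Whether miR-21 loss was accompanied by other levels of these genes after caerulein was asked by setting the knockout libraries against the wild type libraries. No interferon-induced gene passed the test, and the largest difference of the 4 was that of Ifit3. On the scale of log2(signal + 1), limma gave Ifit3 a difference of 1.06 (SE 0.84, 95% interval −0.59 to 2.71, adjusted p = 0.9997). The difference was −0.37 for Oas1a (SE 0.82), −0.26 for Psmb8 (SE 0.82) and 0.20 for Gbp2 (SE 0.86), each with a limma adjusted p of 0.9997. The median of the 4 was −0.03, against 0.10 for all 1429 genes tested.

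Ifit3 was the only gene of the 4 whose genotypes did not overlap, while 4.76% of all tested genes lay higher in both knockout libraries in this way and 9.31% did not overlap in either direction. An exact two-sided permutation test of the 4 libraries gave p = 0.3333 for Ifit3, the smallest that 2 against 2 libraries allow. Ifit3 kept a positive difference in all 10 other settings run, from 0.77 without wild type replicate 2 to 1.36 without wild type replicate 1. It passed in none of these settings, though those that omit a caerulein library leave only 1 library in a group. Since both knockout libraries lay above both wild type libraries, omitting a library or changing the pseudocount could not turn this sign. The filters and the fit of the compared groups alone returned the same difference, 1.06. Quantile normalization gave 1.13, and its sign was fixed by the ranks within each library, which separate the genotypes. Only median-ratio scaling could have turned the sign, and it gave 0.87. Gbp2 changed sign with a library left out, at −0.39 without knockout replicate 1 and −0.05 without wild type replicate 2, and the difference of Oas1a shrank to −0.01 without wild type replicate 2 and that of Psmb8 to −0.03 without knockout replicate 3. Limma called 0 of the 1429 genes (7 at an unadjusted p under 0.05). The 95% intervals of the differences were −1.98 to 1.25 for Oas1a, −1.48 to 1.88 for Gbp2 and −1.87 to 1.35 for Psmb8.

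The libraries that resemble each other were paired from these same data, so the pairs are no separate check. Ifit3 was higher in knockout replicate 3 than in wild type replicate 1 (13.75 and 8.52). It was also higher in knockout replicate 1 than in wild type replicate 2 (16.89 and 5.35). Any pairing gives this for Ifit3, since both knockout libraries lay above both wild type libraries. Psmb8 was lower in the first of these pairs (10.05 and 15.82) and slightly higher in the second (14.15 and 13.26). Oas1a was higher in the first (9.43 and 8.83) and lower in the second (8.13 and 15.1), and Gbp2 the reverse (5.33 and 8.91, then 13.47 and 5.98).

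As deposited, all 4 genes were lower in saline than in every caerulein library, which holds for 89.2% of tested genes in the wild type and 94.2% in the knockout comparison. In wild type caerulein Ifit3, Oas1a and Psmb8 rose (limma adjusted p = 0.0137, 0.0249 and 0.00123), 3 of 4 where 57.3% of all tested genes rose, though the difference of Oas1a turned negative with quantile normalization. As deposited, Oas1a was 11-fold and Gbp2 6.96-fold above saline by the ratio of means, and no fold is given for Ifit3 and Psmb8, which are listed at the lowest value there. Gbp2 did not pass (log2 difference 2.01, SE 1.05, limma adjusted p = 0.0845). The log2 difference of Oas1a was 2.59 (SE 1.01).

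In the knockout the same 3 genes passed against the same saline library (limma adjusted p = 0.00113 for Ifit3, 0.0466 for Oas1a and 0.00198 for Psmb8), where 60.3% of all tested genes rose, and Gbp2 did not (log2 difference 2.21, SE 1.05, adjusted p = 0.0562). As deposited, Oas1a was 8.06-fold and Gbp2 8.79-fold above saline in the knockout, and both differences turned negative with either scaling described next. Because both comparisons share the saline library, their calls are not independent, and the difference between them is the comparison of the genotypes given above.

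The call of Psmb8 in the wild type held in 9 of 10 other settings, that of Ifit3 in 5 and that of Oas1a in 4, while Gbp2 passed in 2. Without knockout replicate 1, which enters this comparison only through the shared variance, the limma adjusted p was 0.0779 for Ifit3 and 0.0725 for Oas1a, and without knockout replicate 3 it was 0.0554 and 0.0531. Without wild type replicate 2 it was 0.0524 for Oas1a and 0.0499 for Gbp2. In the knockout comparison, leaving out knockout replicate 1 gave limma adjusted p = 0.079 for Ifit3, 0.167 for Oas1a and 0.0731 for Psmb8, leaving out knockout replicate 3 gave 0.171 for Oas1a, and Gbp2 passed without wild type replicate 1 (0.0262) or 2 (0.0299). Scaling the libraries to equal medians of gene ratios gave wild type differences of 0.12 for Oas1a and −0.45 for Gbp2, and quantile normalization gave −0.35 and −0.86. In the knockout comparison these scalings gave −0.38 and −0.61 for Oas1a, and −0.38 and −0.63 for Gbp2. For Oas1a and Gbp2 the direction against saline therefore depended on the scaling. For Ifit3 and Psmb8 quantile normalization kept a positive sign but ended every call. It took the wild type difference from 2.94 to 0.33 for Ifit3 (SE 0.89, limma adjusted p = 0.9999) and from 3.94 to 1.45 for Psmb8 (adjusted p = 0.804), and the knockout difference from 4.01 to 1.46 (0.797) and from 3.68 to 1.12 (0.963). Median-ratio scaling ended the wild type call of Ifit3 (difference 2.32, limma adjusted p = 0.0698). As deposited, the sizes depend on the pseudocount of 1, since both genes are at the lowest value in saline: with 0.1 the wild type differences were 5.96 for Ifit3 and 7.05 for Psmb8.

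The wider interferon pathway was taken from 9 lists with 147 symbols, of which 21 genes, the 4 above included, are in the deposited table. None of the 11 listed interferon genes, the 4 chemokines or the 11 nucleic acid sensors was among the 1457 genes, so neither the ligands nor Cxcl10 was analysed here. Of the 21 genes 12 rose in wild type caerulein against saline (57.1%) and 12 in the knockout (57.1%), next to 57.3% and 60.3% of all tested genes. None of the 21 fell in either, where 0% and 0.14% of all tested genes did. Their median log2 difference was 2.64 in the wild type and 2.94 in the knockout, against 2.71 and 2.80 for all tested genes, with 6 of the 21 at the lowest value in saline. These shares and medians lie close to those of the whole table. The direction was taken from the values as deposited: with quantile normalization 0 of the 21 passed against saline and 9 (wild type) and 11 (knockout) had a positive difference, and with median-ratio scaling 14 and 13 did. Under the latter Ifnar2 and Psmb8 were among those that passed as higher in both comparisons, Ptpn2 in the wild type and Ifit3 in the knockout, and Erap1 passed as lower in the wild type. Every gene that passed as higher there stands at the lowest value in saline. The scaling factors came from the 851 genes above that value in every library, so these genes did not enter them. Below, rose refers to the values as deposited; with quantile normalization the differences of Jak1 and Ifitm1 from saline in the wild type and of H2-DMb1 in both genotypes turned negative.

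Of the 5 measured receptors and signal carriers 3 rose in both comparisons with saline, Ifnar2 and Jak1 among them, and Ifnar1 and Jak2 did not pass. That count is close to the shares of all tested genes that rose, 57.3% in the wild type and 60.3% in the knockout. Ifnar2, a chain of the type I interferon receptor, was listed at 0.01 in saline, at 35.85 and 26.97 in the wild type and at 70.1 and 20.79 in the knockout. The wild type libraries lay between the knockout libraries, as they did for Gbp2. Jak1 was 0.79 in saline, 20.95 and 4.37 in the wild type and 14.6 and 11.17 in the knockout. Ifnar1, the other receptor chain, was 2.47 in saline, 9.25 and 15.51 in the wild type and 10.59 and 15.77 in the knockout, and Jak2 was 0.65, then 9.77 and 3.74, then 3.79 and 7.6.

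Of the measured negative regulators Ptpn2, a phosphatase that acts on JAK and STAT proteins, rose in both comparisons, from 0.01 in saline to 8.31 and 13.16 in the wild type and 13.9 and 7.43 in the knockout. Pias3, an inhibitor of STAT proteins and a published miR-21 target, was 4.01 in saline, 7.09 and 5.04 in the wild type and 13.54 and 17.09 in the knockout. Pias3 and Ifit3 had the largest differences between the genotypes among the 21 genes, and neither passed the test (Pias3 log2 difference 1.21, 95% interval −0.39 to 2.82, limma adjusted p = 0.9997).

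Among the other antiviral effectors Samhd1, Dtx3l and Ifitm1 rose in both comparisons. Samhd1, which degrades deoxynucleotides, was 2.62 in saline, 33.8 and 39.83 in the wild type and 48.37 and 27.35 in the knockout. Dtx3l, a ubiquitin ligase that partners Parp9, was 0.16 in saline, 10.07 and 8.39 in the wild type and 10.84 and 12.01 in the knockout, so that the genotypes did not overlap although they differed by only 0.28 on the log2 scale. Ifitm1, a membrane protein that hinders viral entry, was 0.22, then 5.17 and 14.22, then 15.2 and 8.63. Oas1b, the neighbour and paralog of Oas1a, was highest in the same library, wild type replicate 2, and below saline in some others, at 3.7 in saline, 1.1 and 14.14 in the wild type and 2.82 and 4.54 in the knockout.

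None of the 4 measured interferon-induced GTPases passed in any comparison in the main fit, though Gbp2 passed against saline in some other settings, as given above. Of all tested genes 57.3% rose in the wild type and 60.3% in the knockout, and 0 passed between the genotypes. Irgm2, an immunity-related GTPase, was 0.2 in saline, 6.99 and 4.87 in the wild type and 10.53 and 4.92 in the knockout, with knockout replicate 1 the highest library, as for Gbp2. Tgtp2 was listed at 0.01 in saline and at 4.27, 8.02, 14.4 and 2.96 in the caerulein libraries in the same order, and Tgtp1 at 4.52, then 3.31, 8.61, 10.37 and 0.01. Of the 36-base words of Tgtp1, 82.1% also occur in Tgtp2, so these 2 genes cannot be read separately. Their RefSeq windows, and that of Irgm2, hold both an ISRE and a GAS match. Of the 13 measured genes of the induced-gene lists that have a window, 6 held an ISRE match and 6 a GAS match. Dtx3l, Ifitm1, Erap1, H2-Eb1 and H2-DMb1 held neither, and Samhd1 held only a GAS match.

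In antigen presentation H2-Eb1 and H2-DMb1, of MHC class II, rose in both comparisons. H2-Eb1 was 3.31 in saline, 74.25 and 25.44 in the wild type and 100.05 and 36.72 in the knockout, and H2-DMb1 was 0.51, then 7.84 and 9.05, then 12.06 and 4.12. Erap1, which trims peptides for class I, did not pass, at 4.2 in saline, 10.53 and 1.73 in the wild type and 2.47 and 14.48 in the knockout. Psmb8 and Erap1 were the only 2 of 16 listed immunoproteasome and class I genes in the table. The B cell markers Cd79a and Igj, 2 of 6 listed, summed to 8.98 in saline, 57.7 and 4.58 in the wild type and 50.6 and 2.12 in the knockout. Against saline they differed: Cd79a was 8.8, then 5.95 and 3.81, then 39.74 and 0.48. Igj was 0.18, then 51.75 and 0.77, then 10.9 and 1.64. The H2-Eb1 values follow the same order of high and low libraries within each genotype as this sum. So does the macrophage and monocyte sum given below (419 and 311, then 389 and 363). With 2 libraries per genotype such an order is easily shared. The part of either cell type in the H2-Eb1 values was not tested.

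Knockout replicate 1 held the highest value of 12 of the 21 genes, Ifit3 and Gbp2 among them, against 30.1% of all tested genes. For 4 of the 21 knockout replicate 3 was highest, for 3 wild type replicate 1 and for 2 wild type replicate 2, where the shares over all tested genes were 16.5%, 43.7% and 9.66%. Between the genotypes 0 of the 21 passed limma, and 13 of the 21 had a positive difference, where 842 of the 1429 tested genes did (58.9%). For 3 (Ifit3, Dtx3l and Pias3) both knockout libraries lay higher than both wild type libraries, where 4.76% of all tested genes did.

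**Figure D3:**
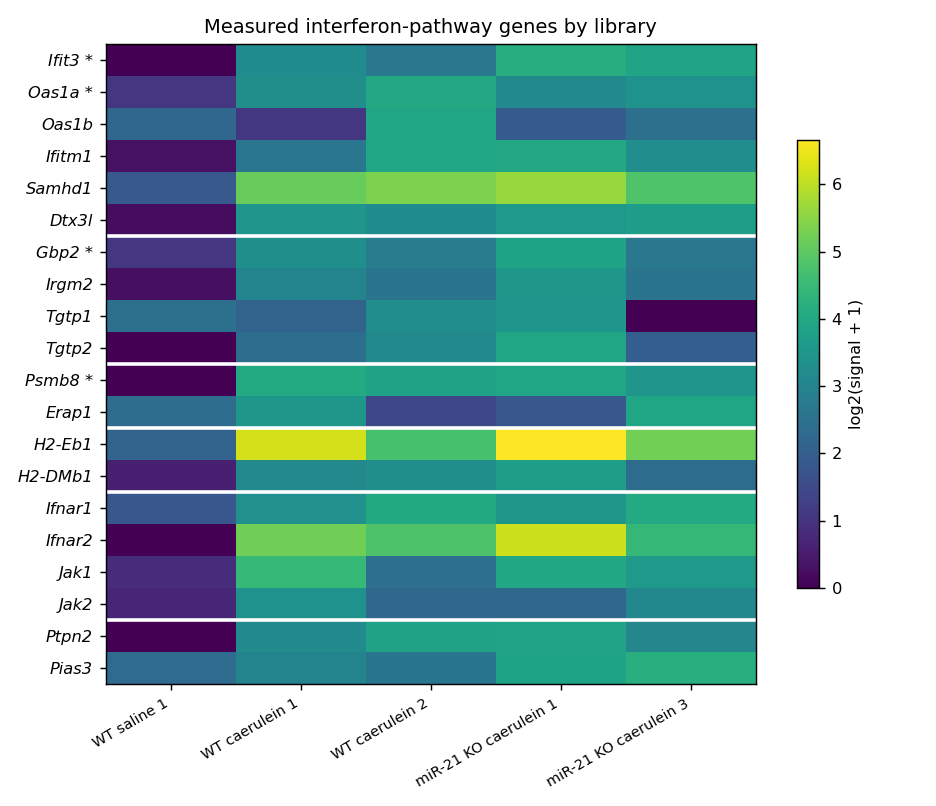
Signal of 20 of the 21 measured interferon-pathway genes as log2(signal + 1), colour scale at right, in the 5 libraries, with the 4 genes described first marked by an asterisk and white lines between gene lists. In the values as deposited, saline is the darkest column for 17 of the 20 genes; with quantile normalization 9 of all 21 had a positive wild type difference.

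**Figure D4:**
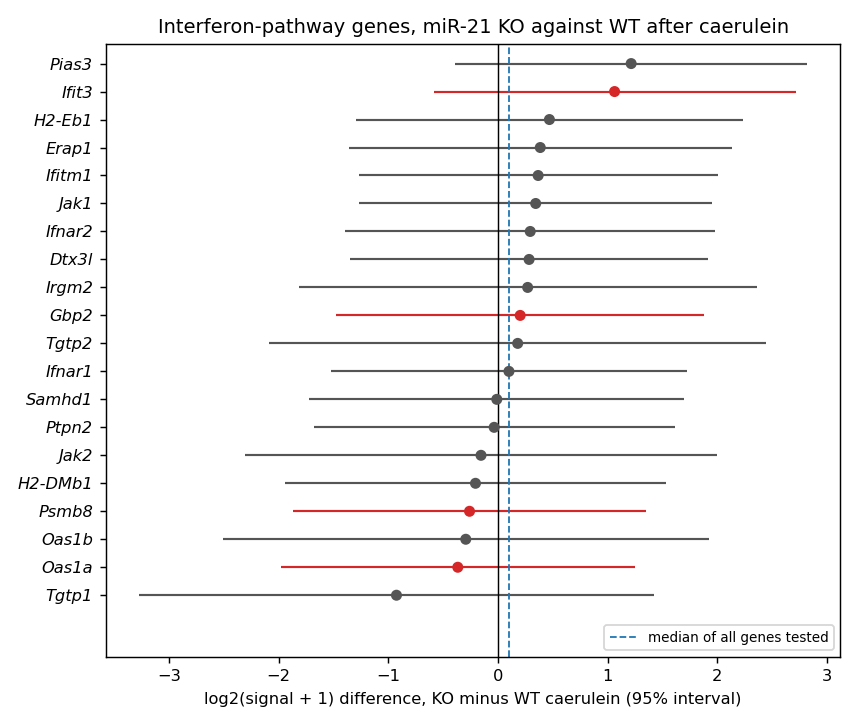
Difference of log2(signal + 1), knockout minus wild type after caerulein, with 95% limma intervals, for the same 20 genes (Ifit3, Oas1a, Gbp2 and Psmb8 in red). The dashed line marks the median of the 1429 genes tested, 0.10, and every interval crosses 0.

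Psmb8 can be set beside the rest of the proteasome. Psmb5, the constitutive subunit it replaces, was 2.91 in saline, 17.05 and 10.77 in the wild type and 10.2 and 46.27 in the knockout, and 67.7% of its 36-base words recur in other transcripts, mostly the gene model Gm3375. Psmb5 did not pass in the wild type (limma adjusted p = 0.106) and rose in the knockout (0.0312). Of 14 listed constitutive core subunits 3 were in the table, and Psma6 and Psmb3 rose in both comparisons. Psma6 was 0.28 in saline, 58.7 and 9.07 in the wild type and 10.1 and 58.65 in the knockout, a swing between libraries of the same genotype that Psmb8 did not show. Of 24 listed regulator and assembly genes 9 were in the table, of which 4 rose in the wild type and 5 in the knockout. For core and regulators together, 6 of 12 rose in the wild type and 8 of 12 in the knockout, next to 57.3% and 60.3% of all tested genes. Among them Pomp, the assembly chaperone of the core, was 0.74 in saline, 22.12 and 26.1 in the wild type and 25.56 and 23.16 in the knockout, and Psmd3, a subunit of the regulatory lid, was 2.8, then 27.93 and 18.94, then 34.17 and 16.12. Psmd2 and Psmd13, other subunits of the regulatory particle, were lowest among caerulein libraries in wild type replicate 2, at 1.29 and 1.63. None of these 12 proteasome genes passed between the genotypes, where the median difference was 0.09 for the core and 0.05 for the regulators.

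The profiles of the 4 genes over the 5 libraries differed from one another about as much as those of genes at large. Likeness was measured as the root-mean-square difference between profiles of log2(signal + 1), each centred on its own mean. The gene most like Ifit3 was Zfp617, with a difference of 0.06, listed at 0.01 in saline and at 8.88, 5.2, 15.91 and 14.79 in the caerulein libraries. Zfand1 (0.16) and Lmbrd1 (0.20) followed. Nearest to Oas1a were Bik (0.11), Kdelc2 (0.17) and Tmem181b-ps (0.19), nearest to Gbp2 Papss1 (0.13), Angptl4 (0.14) and Ide (0.17), and nearest to Psmb8 Rac1 (0.08), Tk1 (0.09) and Jun (0.12). Seen from Ifit3, Psmb8 ranked 357th of 1428 other genes, Gbp2 600th and Oas1a 882nd. The closest pair among the 4, Ifit3 and Psmb8, differed by 0.62, not far from the median over all genes (0.78 for Ifit3 and 0.72 for Psmb8).

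As deposited, the marker sums below and Csf3r were lower in saline than in every caerulein library. So were 89.2% of tested genes in the wild type and 94.2% in the knockout comparison. The B cell sum given above did not follow this order. Of 16 macrophage and monocyte markers 7 were in the table, with a summed signal of 3.17 in saline, 311 to 419 in the wild type and 363 to 389 in the knockout, and Emr1, Mrc1 and Ly6c2 were at the lowest value in saline. The neutrophil receptor gene Csf3r, 1 of 8 neutrophil markers, was 0.01 in saline and 6.69 to 21.82 after caerulein. No T or NK cell marker (0 of 12) and no dendritic cell marker (0 of 7) was in the table. Acinar markers, 4 of 21 listed, summed to 11.3 in saline, 983 and 38.5 in the wild type and 315 and 636 in the knockout, so the defining enzymes of pancreas were largely outside the table and the tissue label could be checked only in part. More cells of a type and more RNA per cell cannot be told apart in whole tissue, and the part of infiltrating cells in the levels of the 4 genes was not tested.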

How the data were processed

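Poly(A) RNA of whole pancreas was fragmented, reverse transcribed with random primers and sequenced on an Illumina instrument, per the labels' protocols. Bowtie 0.12.2 and genome build mm8 are named in the submitters' processing notes. Each deposited file lists a signal for every gene symbol. For its unit, quantification and normalization the entry is: not given in the sources used here. Depth is unknown, so no counting intervals are given.

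Values were transformed to log2(signal + 1) without rescaling. The 1429 of 1457 genes that reached a signal of 1 in 2 or more libraries were fitted with limma 3.58.1 in R 4.3.3 (1 mean per group over all 5 libraries, trended and robust variance, Benjamini-Hochberg over all genes tested, threshold 0.05). The saline library adds no spread of its own and is assumed to vary like the others. On this scale changes of weakly expressed genes come out too small. The script was tested on simulated data. Alternatives were a pseudocount of 0.1, no filter, a filter at 5, quantile normalization, median-ratio scaling, fitting the 2 compared groups alone, and omitting each caerulein library in turn.

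The 4 genes and the gene lists were chosen with earlier results of these data known. Genes named are the 4, all measured genes of lists with 6 or fewer measured (otherwise the 4 highest by mean), and the 3 most similar profiles; Cd79a, Igj, Csf3r, Emr1, Mrc1 and Ly6c2 stand for the marker lists. Certain genes that this rule names are left out of the text and the figures but stayed in the tests and list counts. Symbols had a current name for 1453 of 1457 genes. Promoter windows are RefSeq's for GRCm38.p6, trimmed to the 250 bases before the start (4 of 4 genes matched), and a gene counts as holding a motif if any of its windows does. Shared 36-base words were counted over GENCODE M21 transcripts on either strand.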

Additional observations from a re-analysis of the deposited data

How the results depend on the processing

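No paired analysis was possible because the caerulein groups share only replicate number 1. Between the genotypes limma called 0 genes in 9 of the 10 settings and 4 genes without wild type replicate 1, so the counts with a replicate omitted span 0 to 4. The sign of the genotype difference turned only for Gbp2, to −0.05 and −0.39 without wild type replicate 2 and knockout replicate 1. Leaving out a library moved the median of all genes from 0.10 to between −0.33 and 0.50, and relative to that median Ifit3 stayed at 0.85 to 1.10 over all 10 settings. On that scale Oas1a ranged from −1.23 to 0.32, Gbp2 from −0.41 to 0.65 and Psmb8 from −0.64 to −0.05. Relative to the median, the signs of both Oas1a and Gbp2 thus depended on the setting.

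The 819 genes called for the wild type against saline became 9 with quantile normalization, 207 with median-ratio scaling and 440 with only the 2 groups compared, and spanned 377 to 1080 when single libraries were omitted. The 863 for the knockout became 6 and 185 with those scalings and spanned 29 to 1028. As deposited, all 819 were higher than saline, and of the 863 in the knockout 861 were higher and 2 lower. With quantile normalization the 9 and the 6 were all lower. With median-ratio scaling 180 were higher and 27 lower in the wild type, and 164 and 21 in the knockout. Both scalings draw the saline library towards the others, which took the median difference of all genes from 2.71 to 0.07 and 0.81 in the wild type and from 2.80 to 0.08 and 0.80 in the knockout. Differences from saline turned negative for Oas1a with quantile normalization (−0.35 in the wild type, −0.61 in the knockout) and with median-ratio scaling in the knockout (−0.38), and for Gbp2 with quantile normalization (−0.86 and −0.63) and median-ratio scaling (−0.45 and −0.38). The differences of Ifit3 and Psmb8 were positive in every setting, but with quantile normalization they were 0.33 and 1.45 in the wild type and 1.46 and 1.12 in the knockout, and none passed. With 2 libraries per genotype and unknown depth, the intervals given for the differences between the genotypes are wide. They show which differences are compatible with the values and do not give the smallest difference that the test could have detected.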
